A study of Temnothorax rugatulus with 32 samples.

Results

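The transcripts described here are those that a queen ant's brain and fat body both express, and the question is whether a queen that is high for a transcript in 1 tissue is also high for it in the other. The members are the contigs, assembled transcript sequences, with a mean of at least 5 CPM, the count scaled to the size of its library, over the 16 brains and over the 16 fat bodies. They number 10601 of the 228763 contigs in the table and lie in 7163 assembly components, a component being a set of contigs that share the first part of their name. For each contig the log2 CPM of every library was taken as a deviation from the mean of its age and tissue group, so that neither age nor tissue enters, and the brain deviations were correlated with the fat body deviations over the 16 queens. Of the members, 10575 could be tested and 26 did not pass the filter on low counts. The members just inside the threshold had 5.002 CPM in their lower tissue and the contigs just outside it had 4.999 CPM. The median r was 0.319 over the 200 members just inside and 0.180 over the 200 contigs just outside.

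The brain holds neurons and glia, which drive behaviour and hormone release. The fat body is the insect counterpart of liver and adipose tissue, and it stores lipid, detoxifies and secretes blood proteins and yolk precursors. Both tissues of an animal share 1 genotype and 1 circulating haemolymph, which carries hormones such as juvenile hormone between them. Many transcripts that both tissues use belong to the general machinery of a cell, such as ribosomes, proteasomes and spindle and chromatin proteins.

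The queens were Temnothorax rugatulus, 8 labelled old and 8 labelled young, all collected in the field, with no treatment stated. Each gave 1 fat body and 1 brain library, so there were 8 old fat bodies, 8 young fat bodies, 8 old brains and 8 young brains. The labels give no age in years, colony or collection site, and they state that the reads of young brain Y-134 came from 2 lanes. Queens are named here by their label, with O for old and Y for young. Total counts were 22798433 to 29614630 in old fat bodies, 20658985 to 31200003 in young fat bodies, 13861667 to 27434445 in old brains and 23826705 to 33461227 in young brains. A count of 3, the limit that a count of 0 allows, corresponds to 0.0897 to 0.216 CPM in these libraries, a limit that covers counting error only.

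The tissue labels were checked against the summed CPM of contigs whose deposited description names a defining protein of a cell type. The fat body markers, of which transferrin made up most, lay at 663 to 5733 CPM in old fat bodies and 42.8 to 1861 CPM in young fat bodies, against 195 to 626 CPM in old brains and 162 to 458 CPM in young brains. The only neuronal marker described, at most 0.405 CPM in old fat bodies and 0.108 CPM in young fat bodies, lay at 5.90 to 13.8 CPM in old brains and 3.10 to 6.18 CPM in young brains. The glial glutamate transporter lay at 16.1 to 22.6 CPM in old fat bodies and 21.6 to 30.4 CPM in young fat bodies, against 73.1 to 151 CPM in old brains and 64.7 to 110 CPM in young brains. Of these 3, the neuronal and glial markers separated the tissues in every queen, while the fat body markers overlapped between young fat bodies and brains. The 4 described photoreceptor contigs instead summed to 4.18 to 10.3 CPM in young fat bodies, against 2.48 to 5.13 CPM in young brains. In old queens they summed to 0.464 to 4.05 CPM in fat bodies and 2.17 to 3.58 CPM in brains. No germline marker, vitellogenin or hexamerin was among the described members.

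A positive relation between the brain and fat body of a queen passed the test in a minority of the shared transcripts. With a permutation test that reassigns brains to fat bodies within each age, 1459 of the 10575 members tested had a positive r at a Benjamini-Hochberg adjusted p under 0.05, where the adjustment runs over all 47045 contigs tested. That is 13.8% of the members, against a background of 9.37% over all contigs tested, members included. A negative r passed in 5 members, which is 0.0473% of the members and below the background of 0.0701%. At an unadjusted p under 0.05 the counts were 2483 positive and 67 negative. Every contig counted here as called passed the adjusted threshold.

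The median r over the members was 0.199, with a jackknife error of 0.0319 over queens, beside 0.173 over all contigs tested. The quartiles were -0.030 and 0.499 and the range was -0.804 to 0.999. An r above 0 was found in 71.7% of the members, and 624 members had an r of at least 0.9. The called members had a median r of 0.868. Of the members tested, 9111, or 86.2%, were not called in either direction. Among the members without a call the highest r was 0.993.

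**Figure D1:**
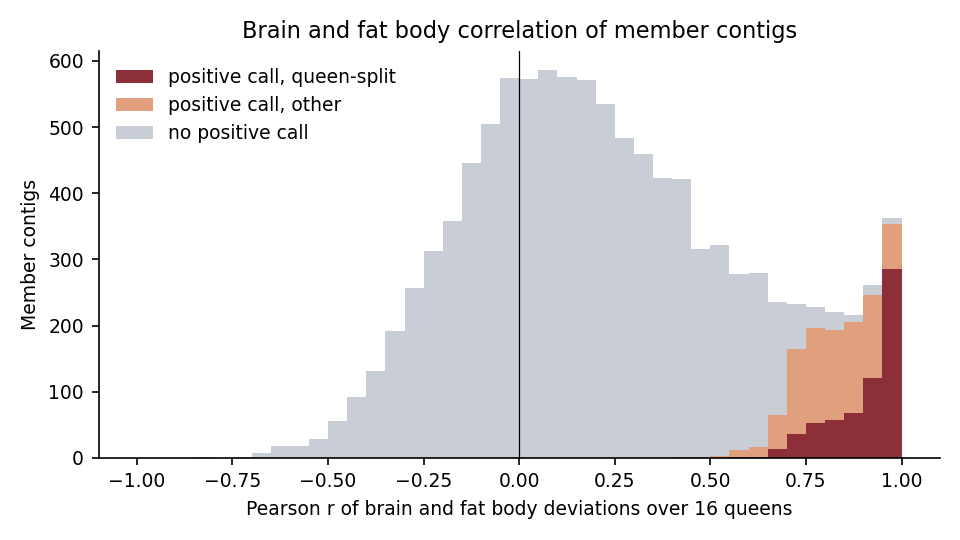
Number of member contigs (vertical axis) by Pearson r of brain and fat body deviations over 16 queens (horizontal axis), coloured by whether r was called positive and whether the contig was queen-split, that is near 0 in both tissues of some queens and well above it in both tissues of others. The bulk lies between the quartiles of -0.030 and 0.499, and the called members, 636 of them queen-split, form a shoulder towards 1.

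Of the count models, edgeR's gave a similar number and DESeq2's a larger one. In edgeR's quasi-likelihood test of the 14 queen terms, which asks whether queens of an age differ in both tissues alike, 1222 members, or 11.6%, passed an adjusted p under 0.05, against a background of 7.02% over the contigs in that fit. Of the r calls, 74.4% were also called by the queen term, and of the queen term calls, 88.8% were also r calls. None of the 5 members with a negative r was called by the queen term. That term looks for deviations that both tissues share, so it could hardly call them, and this says nothing further about them. DESeq2's likelihood-ratio test of the same terms called 2682 of the 10575 members tested, more than the 1459 r calls. Its background was 8200 of 48253 contigs, or 17.0%.

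Calls were tied to how much a transcript varied between queens. The standard deviation (SD) of the deviations over queens had a median of 0.567 log2 in the fat body and 0.370 log2 in the brain. Members were grouped by the smaller of their SDs in the 2 tissues. Below 0.2 log2, 5 of 1894 members were called positive, which is 0.264%. Between 0.5 and 1 log2 the share was 18.9%, between 1 and 2 log2 it was 41.5%, and at 2 log2 or more it was 62.4%, or 721 of 1155 members. Of the members tested, 7023 lay below 0.5 log2, with 2.21% called and a median r of 0.108, and 3552 lay at or above it, with 36.7% called and a median r of 0.551. Of the 3552, 2248 had no call.

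Abundance and the number of sister contigs moved with the calls as well. The share called positive was 18.9% below 10 CPM, 16.0% from 10 to 30 CPM, 11.4% from 30 to 100 CPM and 6.78% at 100 CPM or more. Among contigs that were the only tested contig of their component, 195 of 3745, or 5.21%, were called, against 15.3% with 2 or 3 tested contigs, 21.5% with 4 to 9 and 21.6% with 10 or more. By the size of the log2 difference between fat body and brain, the share was 15.5% under 1 and 1.61%, or 4 of 249, at 4 or more. These properties are related to each other, and their separate parts in the calls were not tested.

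**Figure D2:**
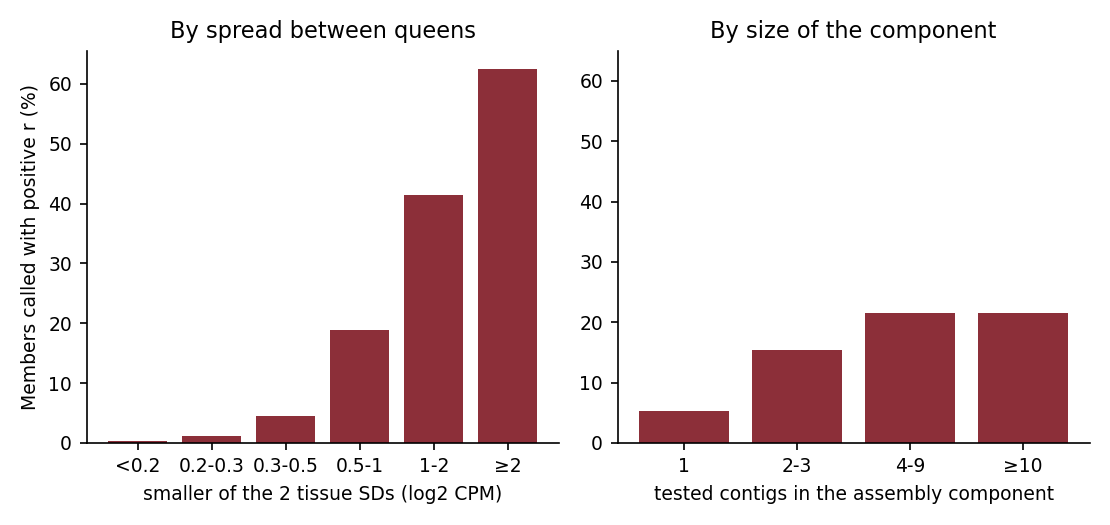
Percentage of members called with a positive r (vertical axes) by the smaller of the 2 tissue SDs in log2 CPM (left) and by the number of tested contigs in the assembly component (right). The share climbs from 0.264% to 62.4% over the bins of spread, and from 5.21% for single contigs to 21.6% for components of 10 or more.

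Protein names were available for few members. The authors' deposited age tables describe 467 members and give a protein name for 400, all of them contigs that the authors had selected for a difference with age in these same libraries. Of the named members 3 were called, all with a positive r, or 0.75%, with 25 positive and 3 negative at an unadjusted p under 0.05, against 1456 of 10108 tested members with no description, or 14.4%. The named members varied less, with a median of 0.238 log2 for the smaller SD against 0.359 log2. Among the 45 named members with an SD of at least 0.5 log2 in both tissues, 2 were called, or 4.44%. The median r of the 400 was 0.060. Pathways whose contigs were not selected for age are therefore not represented in the named results below.

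The clearest named case was a contig annotated as ATP-binding cassette sub-family B member 10, mitochondrial-like (ABCB10; TR35372c0_g2_i1len=1327), a transporter of the mitochondrial inner membrane linked to haem synthesis in mammals. Its lowest, median and highest CPM were 18.4, 39.6 and 60.3 in old fat bodies, 51.6, 75.1 and 131 in young fat bodies, 89.3, 152 and 332 in old brains and 128, 221 and 413 in young brains. After removal of the group means, queens Y-503, O-796 and O-269 ranked highest in both tissues, and O-603 and Y-594 were among the 3 lowest in both. Without that removal the fat body of O-796 stood at 60.3 CPM and its brain at 332 CPM, while O-603 had 18.4 CPM and 89.3 CPM. The deviations had an SD of 0.517 log2 in the fat body and 0.596 log2 in the brain. They correlated at r = 0.903 over 16 queens (permutation p = 1e-05, the smallest that the draws can give; adjusted p = 0.0012) and at Spearman's rho = 0.882 (permutation p = 9e-05, adjusted p = 0.00473). Without the 2 queens farthest from the median in the brain, r was 0.856. It was 0.926 among the 8 old queens and 0.877 among the 8 young queens, with adjusted p of 0.102 and 0.132 in a single age. The queen term had an adjusted p of 0.00033 by edgeR. The contig held all the counts of its component.

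A tropomyosin-1 contig (TR75948c7_g1_i8len=967) came next. Tropomyosin coats actin filaments and controls contraction in muscle, with other forms in non-muscle cells. It was the only described muscle marker among the members. Its lowest, median and highest CPM were 0.852, 1.72 and 4.19 in old fat bodies, 1.74, 9.12 and 20.01 in young fat bodies, 3.92, 5.85 and 17.2 in old brains and 3.52, 15.6 and 20.7 in young brains. Brains fell into separate sets, with 6 at 15.4 to 20.7 CPM and 10 at 3.52 to 7.78 CPM, so no pooled r is given. The 6 queens of the high set were O-482, Y-102, Y-333, Y-453, Y-503 and Y-594. The young queens among them had 6.97 to 20.01 CPM in the fat body, above the 1.74 to 3.45 CPM of Y-134, Y-361 and Y-651. O-482 had the highest fat body value of the old queens, 4.19 CPM. The contig passed the permutation test (adjusted p = 0.0118) but not when Y-134 was left out (adjusted p = 0.0509). The summed counts of its component, which holds 10 tested contigs, had r = 0.391 with an adjusted p of 0.726. In bulk tissue, fewer cells of a type and less RNA per cell cannot be told apart.

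The third called contig was annotated as meiosis arrest female protein 1 homolog (TR70394c1_g1_i5len=8223), an RNA-binding protein required for egg development in mice. Its lowest, median and highest CPM were 12.1, 18.1 and 28.7 in old fat bodies, 20.3, 37.8 and 44.9 in young fat bodies, 42.2, 51.4 and 71.7 in old brains and 36.4, 55.7 and 60.8 in young brains. Y-503 and O-189 had the lowest deviations in both tissues and O-796 the highest. The correlation was r = 0.718 (permutation p = 0.00332, adjusted p = 0.0384), with rho = 0.662 (permutation p = 0.00905, adjusted p = 0.0898). Without the 2 queens farthest from the brain median, r was 0.525. This call was lost in 17 of 25 alternative settings, which gave adjusted p from 0.0045 to 0.554. It was lost on leaving out any queen other than O-426, O-482, O-603 and Y-594, with the highest adjusted p of these, 0.156, without Y-503. The summed component, with 6 tested contigs, had r = -0.120 (adjusted p = 0.941).

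**Figure D3:**
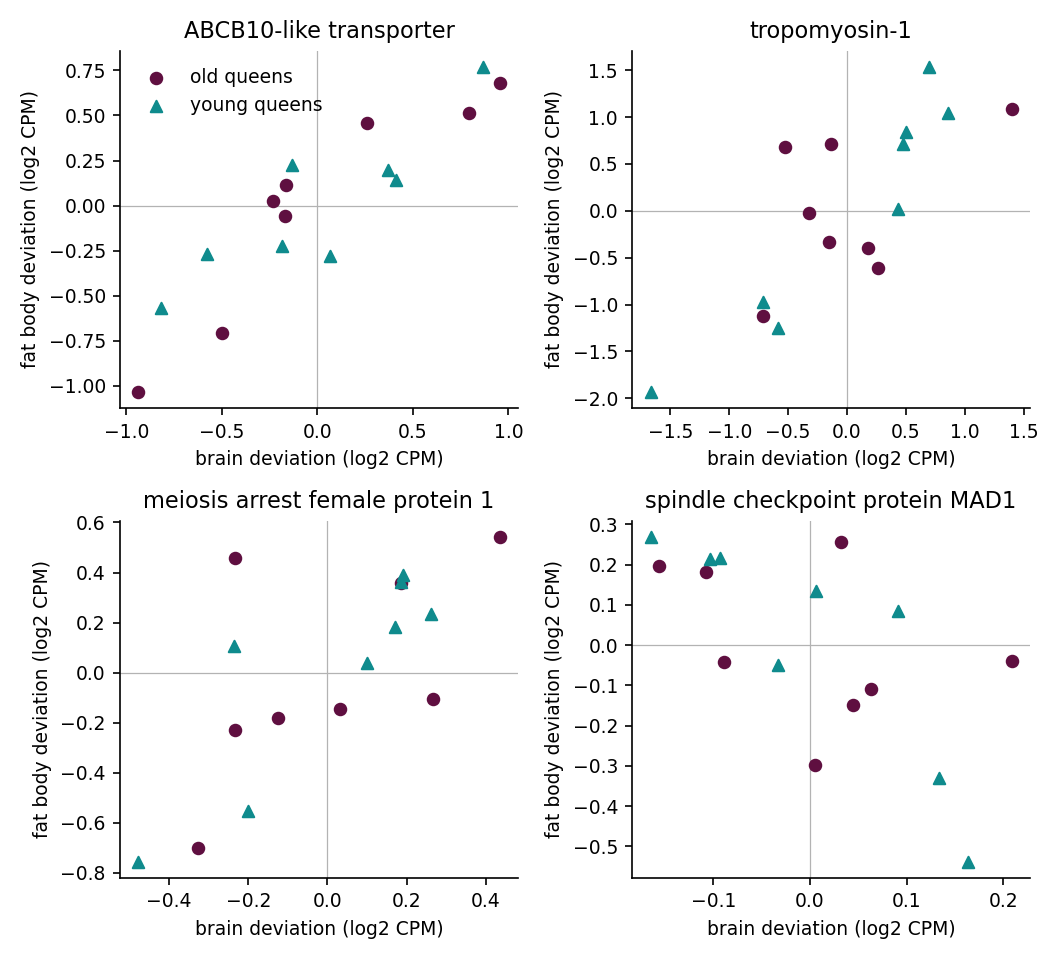
Deviation from the age and tissue group mean in the fat body (vertical axes) against that in the brain (horizontal axes), both in log2 CPM, with 1 point per queen (circles old, triangles young). The points of the ABCB10-like contig rise along a line at r = 0.903, those of tropomyosin-1 lie in separate sets, and those of MAD1 fall at r = -0.661 over a much narrower brain range.

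Inverse relations were few and small in the brain. No named member was called with a negative r. The lowest named value belonged to MAD1, the spindle assembly checkpoint protein that delays chromosome separation, at r = -0.661 (permutation p = 0.00688, adjusted p = 0.0656) and rho = -0.650 (permutation p = 0.0111, adjusted p = 0.104), and r was -0.703 without the 2 queens farthest from the brain median. Its lowest, median and highest CPM were 21.2, 25.3 and 31.1 in old fat bodies, 24.9, 39.1 and 43.7 in young fat bodies, 52.3, 59.0 and 67.3 in old brains and 54.3, 60.4 and 68.3 in young brains. Y-453 had the lowest fat body deviation and the second highest brain deviation, and Y-594 the highest fat body and the lowest brain deviation. MAD1 passed with the first principal component removed (r = -0.845, adjusted p = 0.0061) and without O-189, O-603 or O-796 (adjusted p = 0.0439, 0.0408 and 0.0379).

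Next came nucleoporin SEH1, a subunit of the nuclear pore, at r = -0.642 (permutation p = 0.0116, adjusted p = 0.0954) and rho = -0.706 (permutation p = 0.00363, adjusted p = 0.0475). It had 5.11 to 8.81 CPM in old fat bodies, 8.17 to 18.4 CPM in young fat bodies, 12.2 to 14.9 CPM in old brains and 14.1 to 18.9 CPM in young brains. Only 3 of 16 queens deviated in the same direction in both tissues. SEH1 thus passed with Spearman's correlation, and it also passed with the first principal component removed (r = -0.721, adjusted p = 0.0319). The other 8 of the 10 lowest named values, none of them called, ran from r = -0.562 for zinc finger protein 26-like to r = -0.409 for protein mahjong. They included centromere-associated protein E, a kinetochore motor, at r = -0.447, and band 3 anion transport protein at r = -0.424.

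The 5 contigs with a called negative r had no description. The lowest was TR70461c3_g1_i1len=4307 at r = -0.804 (permutation p = 3e-05, adjusted p = 0.00185), where rho was -0.797 with an adjusted p of 0.0128 and r without the 2 queens farthest from the brain median was -0.76. It ranged over 17.2 to 54.8 CPM in old fat bodies and 21.3 to 58.0 CPM in young fat bodies, but only over 25.8 to 29.5 CPM in old brains and 27.4 to 34.2 CPM in young brains. The queens with the highest fat body values, O-469 at 54.8 CPM and Y-651 at 58.0 CPM, had the lowest brain values of their ages, 25.8 and 27.4 CPM. With CPM on total counts and no further scaling the call was lost (r = -0.617, adjusted p = 0.1). The second was TR55163c0_g1_i1len=4255 at r = -0.719 (permutation p = 0.00315, adjusted p = 0.037), which was also lost on total counts (r = -0.472, adjusted p = 0.388), with no filter (adjusted p = 0.103), with Spearman's correlation (adjusted p = 0.0679), with the first principal component removed (adjusted p = 0.318) and without any of 9 queens, namely O-426, O-469, O-603, Y-102, Y-134, Y-361, Y-453, Y-503 and Y-651 (adjusted p = 0.0503 to 0.136). In all, 4 of the 5 negative calls were lost on total counts, with adjusted p of 0.1 to 0.388, and 4 of the 5 with no filter. The remaining contigs, TR59903c1_g1_i1len=2041, TR64278c0_g1_i2len=2173 and TR73023c1_g1_i1len=8709, each lost the call on leaving out most single queens. The first 2 of these also lost it with DESeq2's median-of-ratios scaling (adjusted p = 0.109 and 0.0966). The last lost it with Spearman's correlation (rho = -0.436, adjusted p = 0.172). The count of 5 ran from 2 to 8 when single queens were left out. It moved by more than 1.5 times, to 2 without O-469, Y-102, Y-333, Y-453 or Y-651, to 3 without O-269 or Y-503 and to 8 without O-603.

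The named members were sorted into 20 gene lists by words in their descriptions, and 138 fell in at least 1. By the permutation test 1 of these contigs was called, ABCB10 in the detoxification list, and at an unadjusted p under 0.05 so were 1 other detoxification contig, 1 antioxidant and 1 chromatin contig with a positive r and 1 cell cycle contig with a negative r. The edgeR queen term called ABCB10 and 1 antioxidant. The ribosomal protein list, the largest, had 25 members, 0 called, a median r of 0.002 and a range of -0.262 to 0.489. Over the 400 named members, from which the lists are drawn, the median was 0.060 with 0.75% called, and over all members it was 0.199 with 13.8% called. The 40S subunit protein S5 had 569, 836 and 1101 CPM (lowest, median, highest) in old fat bodies, 1006, 1235 and 1912 CPM in young fat bodies, 335, 454 and 651.2 CPM in old brains and 425.7, 569 and 963 CPM in young brains, with r = -0.152 (adjusted p = 0.867). Its fat body was highest in Y-503, whose brain was the third lowest for its group mean, and its fat body was lowest in O-603, whose brain was the second highest. The 60S subunit protein L13 had r = 0.0754 (adjusted p = 0.944).

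Within each tissue the ribosomal proteins did move as a set, in a measure that was added after the values were seen. Over the 300 pairs among the 25 contigs, the median r between deviations was 0.614 in fat bodies and 0.791 in brains, while a ribosomal contig in the fat body and another in the brain had a median of -0.0297. Over all pairs of members tested, the same medians were 0.0185, 0.0298 and -0.0039. These pairs share their libraries, depth and scaling, and no test was run. The mean deviation of the 25 contigs was 0.45 log2 in the fat body of Y-503 and 0.33 in that of O-426, and lowest, at -0.33, in O-603 and, at -0.27, in Y-594. In brains it was 0.51 in Y-102, 0.46 in O-603 and 0.25 in O-796, and lowest, at -0.32, in O-189, with -0.30 in both O-469 and Y-594. O-603 thus had the lowest ribosomal protein level for its group in the fat body and the second highest in the brain, while Y-594 was low in both.

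The proteasome, ubiquitin and autophagy list had 14 members, 0 called, a median r of -0.130, and medians over its 91 pairs of 0.276 in fat bodies, 0.701 in brains and -0.111 across tissues. Proteasome subunit alpha type-6-like, part of the barrel that degrades tagged proteins, had 90.9 to 130 CPM in old fat bodies, 121 to 231 CPM in young fat bodies, 63.5 to 139 CPM in old brains and 62.6 to 98.1 CPM in young brains (r = -0.0802, adjusted p = 0.927). The mean deviation of the list was highest in the fat body of Y-134, at 0.23 log2, and in the brain of O-603, at 0.53 log2. Translation factors had 11 members, 0 called and a median r of -0.168. Their most abundant member, eukaryotic initiation factor 4A-I, the helicase that opens mRNA for ribosomes, stood at r = -0.168 with an adjusted p of 0.849. RNA processing had 13 members and a median r of -0.109, cell cycle 4 members and -0.226, and DNA repair 2 members and -0.170, all with 0 called. Heat shock proteins and chaperones had 8 members, 0 called and a median r of 0.0841.

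In the lists of metabolism, defence and storage, no contig was called apart from ABCB10. Antioxidants had 4 members and a median r of 0.382. Peptide methionine sulfoxide reductase, a repair enzyme for oxidised proteins, had 30.8, 110 and 370 CPM in old fat bodies, 3.64, 9.45 and 38.5 CPM in young fat bodies, 24.5, 42.8 and 201 CPM in old brains and 18.2, 27.4 and 84.6 CPM in young brains. Its r was 0.582 (permutation p = 0.0205, adjusted p = 0.141) and its rho 0.485 (adjusted p = 0.333), with r = 0.343 without the 2 queens farthest from the brain median. The edgeR queen term called it (adjusted p = 0.0404), and without O-469, whose fat body was the highest, the r was called as well (r = 0.743, adjusted p = 0.0291). O-796 was among the 3 highest and O-426 the lowest in both tissues.

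Lipid metabolism had 6 members and a median r of 0.271, detoxification 10 members and 0.116, immunity 3 members and 0.253, and oxidative phosphorylation 3 members and 0.168. Cytochrome P450 CYP12A2-like, of a mitochondrial P450 family, spread widely in fat bodies, at 45.9 to 548 CPM in old and 3.76 to 142 CPM in young queens, and narrowly in brains, at 24.4 to 43.8 CPM in old and 21.8 to 42.3 CPM in young queens, with r = -0.189 (adjusted p = 0.83). Transferrin, the iron carrier of the haemolymph and the only member of the yolk and storage list, had 660, 3341 and 5726 CPM in old fat bodies, 37.8, 183 and 1860 CPM in young fat bodies, 195, 406 and 626 CPM in old brains and 162, 276 and 458 CPM in young brains. Its r was 0.374 (adjusted p = 0.53), with -0.296 in old and 0.747 in young queens, a difference between ages that was not tested. Krueppel homolog 1-like, a transcription factor that juvenile hormone induces, was the only member of the juvenile hormone and insulin list (r = 0.129, adjusted p = 0.879).

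Chromatin proteins had 14 members, 0 called and a median r of 0.070. The highest of them was lysine-specific histone demethylase 1 homolog 3-like, an enzyme family that removes methyl groups from histones, at r = 0.669 (permutation p = 0.00798, adjusted p = 0.0731; rho = 0.665, adjusted p = 0.0864). It had 225, 585 and 1231 CPM in old fat bodies, 40.4, 160 and 334 CPM in young fat bodies, 167, 206 and 305 CPM in old brains and 117, 169 and 248 CPM in young brains. Y-453 was the highest and Y-102 among the 3 lowest for their groups in both tissues. Transporters had 16 members and a median r of 0.0574, neuronal signalling 5 members and 0.0618 and transposable elements 1 member and 0.174, and none was called. No described member fell in the chemosensory or cuticle list.

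Markers of other cell types that a dissection could carry along were described for few members. The 6 gut and Malpighian tubule markers had 0 called and a median r of 0.092, and their sum over 12 described contigs ran from 385 to 1888 CPM in old fat bodies and 214 to 613 CPM in young fat bodies, against 186 to 228 CPM in old brains and 205 to 238 CPM in young brains. The haemocyte marker croquemort-like, a scavenger receptor, had r = 0.336 (adjusted p = 0.521), and venom dipeptidyl peptidase 4, of the venom gland, r = 0.493 (adjusted p = 0.354). The glial glutamate transporter had r = -0.380 (adjusted p = 0.511). The 2 described muscle markers summed to 0.852 to 4.97 CPM in old fat bodies and 1.74 to 20.01 CPM in young fat bodies, against 4.54 to 18.9 CPM in old brains and 3.58 to 20.9 CPM in young brains. Their part, and that of carried-over tissue in general, in the calls was not tested.

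Many of the called members were not graded but split the queens. A contig was counted as queen-split when at least 2 queens had under 1 CPM in both tissues and at least 2 other queens had at least 5 CPM in both. There were 862 of them, 8.13% of the members, in 597 components, and none has a description of its own. Over these contigs and 16 queens there were 13792 states, of which 6888, or 49.9%, were high in both tissues and 4009, or 29.1%, low in both. In 986 states, or 7.15%, 1 tissue was high and the other low, with 483 of these high in the fat body and the rest high in the brain, and in 1909 at least 1 tissue lay between 1 and 5 CPM. In 475 of the contigs, or 55.1%, no queen was discordant. The definition asks for queens that are low in both tissues and queens that are high in both, so it favours concordant contigs, and these counts describe the set and support nothing further. Of the 852 that were tested, 636 were called, and without the queen-split contigs 823 of 9723 members were called, or 8.46%, with a median r of 0.164.

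The contigs with the highest r show the pattern in full. TR73195c0_g1_i4len=6888 had 90.9, 83.1, 82.6, 90.9 and 98.98 CPM in the fat bodies of O-269, O-426, Y-361, Y-453 and Y-503, and 85.7, 70.3, 71.0, 45.3 and 72.5 CPM in their brains. The other 11 queens had 0 counts in both tissues. TR72315c5_g8_i22len=7733 had 23.8, 19.7, 29.6 and 44.9 CPM in the fat bodies of O-796, O-829, Y-333 and Y-361 and 54.7, 42.8, 61.2 and 59.3 CPM in their brains, with 0 counts in both tissues of the other 12. Its positive call (adjusted p = 0.0123) was lost without O-796 (adjusted p = 0.0582) or O-829 (adjusted p = 0.0590). The carriers were of both ages, and the sets of carriers differed between these contigs with only Y-361 in both. The components these contigs belong to did not share the gaps. The first component summed to 92.6 to 373 CPM over fat bodies and 125 to 176 CPM over brains, the second to 200 to 407 CPM and 118 to 202 CPM.

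The same held broadly. For 677 of the 862 queen-split contigs, or 78.5%, the summed component had at least 5 CPM in every library. Where a component held other contigs, the split contig and the rest of its component had a median r over queens of -0.495 in fat bodies and -0.636 in brains, negative in both tissues for 591 of 754. Called members that were not queen-split had medians of -0.413 in fat bodies and -0.623 in brains, negative in both for 500 of 711, beside 0.0565 and -0.105 for the 5162 members that were not called. RSEM, which the submitters' processing notes name, divides reads between similar contigs, and its part in these negative values was not tested. No sequence of the contigs was used here, and allelic forms, splice forms and assembly duplicates cannot be told apart.

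Names for some of these contigs come from a sister contig in the same component, a step taken after the values were seen. Of the members with no name of their own, 266 lie in a component with a named contig, and 27 of these, in 16 components, were queen-split. The 8 with the highest mean CPM are described here. In the component of protein transport protein Sec31A, a coat protein of vesicles that leave the endoplasmic reticulum, the split contig had 8.02 to 77.7 CPM in fat bodies and 7.204 to 84.7 CPM in brains of 11 queens and 0 in both tissues of O-189, Y-333 and Y-361. O-829 and Y-503 had 2.65 and 2.72 CPM in fat bodies and 1.44 and 0.38 CPM in brains. The component as a whole had 86.5 to 286 CPM in fat bodies and 114 to 138 CPM in brains. In the component of monocarboxylate transporter 12, of a family that carries lactate and related molecules, 12 queens had 76.1 to 279 CPM in fat bodies and 68.2 to 138 CPM in brains, and O-796 and Y-594 had 0 in both. O-603, with 0 CPM in the fat body and 50.8 CPM in the brain, and O-829, with 1.11 CPM and 17.3 CPM, fell outside the pattern.

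The remaining ones differed in how closely the tissues matched. The contigs in the components of protein phosphatase 1B, of sulfatase-modifying factor 1, which activates sulfatases, and of cytosolic 10-formyltetrahydrofolate dehydrogenase, a folate enzyme, had no discordant queen. They were high in both tissues of 11, 11 and 13 queens and low in both of 4, 4 and 2 queens. Those in the components of polyadenylate-binding protein 4-like, Niemann-Pick C1 protein, a cholesterol carrier of lysosomes, and tenascin-like had 4, 5 and 7 discordant queens. Concordance thus varied among split contigs of this abundance.

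In 2 of these components, again picked after the values were seen, a pair of contigs alternated. In the protein phosphatase 1B component, contigs i9 and i2 were set against each other, a contig counting as absent under 1 CPM and as present from 5 CPM. In fat bodies, 6 queens (O-189, O-469, O-482, O-829, Y-361 and Y-594) had i9 without i2, at 34.2 to 51.6 CPM, and 5 queens (O-269, O-796, Y-102, Y-333 and Y-651) had i2 without i9, at 35.4 to 76.7 CPM. The other 5 queens, O-426, O-603, Y-134, Y-453 and Y-503, had both, with i9 at 14.02 to 31.3 CPM and i2 at 11.6 to 29.99 CPM. In brains the same 6 queens had i9 without i2 (74.3 to 86.5 CPM), the same 5 had both (26.2 to 45.8 and 32.4 to 53.7 CPM), and 4 of the other 5 had i2 without i9 (62.2 to 107 CPM), the exception being Y-651 with 1.03 CPM of i9. The sum of the pair had medians of 37.9, 47.6 and 42.9 CPM in fat bodies of queens with i9 only, i2 only and both, and of 78.3, 70.5 and 79.8 CPM in their brains. Thus queens with both had each contig at a lower level than queens with a single one, at a similar sum. No queen lacked both.

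In the sulfatase-modifying factor 1 component, contigs i5 and i4 formed such a pair. In fat bodies 6 queens had i5 only (49.4 to 133 CPM), 4 had i4 only (36.3 to 92.4 CPM; O-482, O-796, O-829 and Y-134) and 4 had both (27.1 to 98.7 and 41.7 to 114 CPM; O-426, Y-102, Y-503 and Y-651). In brains 6 queens had i5 only (85.7 to 136 CPM), and the i4-only and both sets held the same queens as in fat bodies, at 69.0 to 136 CPM for i4 only and at 33.5 to 82.3 and 59.7 to 74.6 CPM with both. The sum of the pair had medians of 84.6, 58.7 and 105 CPM in fat bodies of queens with i5 only, i4 only and both, and of 115, 106 and 127 CPM in their brains. The levels of queens with both overlapped those of queens with a single contig in the fat body, for i5 and for i4, unlike in the protein phosphatase 1B pair. The other 2 queens in each tissue had a value between the limits or, in 1 fat body, neither contig. In both components every set held old and young queens.

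Of the 266 members named through a sister contig, 21 others, in 17 components, were called without being queen-split. Taking 1 contig per component, the 15 with the highest r were looked at, and 13 of their summed components were not called. The 5 with the highest r follow. The contig in the component of A-kinase anchor protein 1, a tether of protein kinase A at mitochondria, ranged over 2.35 to 93.4 CPM in old fat bodies, 0 to 105 CPM in young fat bodies, 1.86 to 85.8 CPM in old brains and 0.628 to 93.0 CPM in young brains, and deviated in the same direction in both tissues in 16 of 16 queens (r = 0.952, permutation p = 1e-05, adjusted p = 0.0012; rho = 0.947, adjusted p = 0.00164). The contig in the component of hu-li tai shao, the fly adducin of the membrane skeleton, had 5.65 to 72.1 CPM in fat bodies and 10.6 to 133 CPM in brains, also with the same direction in 16 of 16 queens (r = 0.911, adjusted p = 0.0012), while its component sum had r = -0.102 (adjusted p = 0.941). The contig in the component of proteasomal ubiquitin receptor ADRM1 had r = 0.941 (adjusted p = 0.0126) but rho = 0.615 (adjusted p = 0.141) and r = 0.55 without the 2 queens farthest from the brain median, and its component sum had r = -0.154 (adjusted p = 0.893). That of far upstream element-binding protein 1, which binds nucleic acids, had r = 0.927 (adjusted p = 0.0012), with r = -0.423 for the component sum (adjusted p = 0.534). That of suppressor of sable, an RNA-binding protein of flies, had r = 0.880 (adjusted p = 0.00157), with r = -0.0460 for the component sum (adjusted p = 0.982). Further down, a contig of phospholipid hydroperoxide glutathione peroxidase, which reduces oxidised lipids, had r = 0.848 (adjusted p = 0.00319) and a component sum of r = -0.108 (adjusted p = 0.955), beside r = 0.287 (adjusted p = 0.666) for the described contig of the same protein.

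Counts were also summed over each component, which undoes any division of reads between its contigs. Summing merges real differences between sister contigs too, and the 2 cannot be told apart here. Of 7774 components with a mean of at least 5 CPM in both tissues, 366, or 4.71%, were called with a positive r and 2 with a negative r, against a background of 5.59% positive over all 30392 components tested. The median r was 0.0878. Of the 1264 called members in components with more than 1 tested contig, 174, or 13.8%, had their summed component called. Among the 434 components with a named contig at this level, 4 were called, or 0.922%, with a median r of 0.0257.

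Besides ABCB10 these were A-kinase anchor protein 1, F-box/WD repeat-containing protein 9-like and focadhesin. The summed A-kinase anchor protein 1 component had 49.2, 63.4 and 118 CPM in old fat bodies, 22.8, 62.7 and 130 CPM in young fat bodies, 48.7, 68.3 and 122 CPM in old brains and 45.7, 78.0 and 140 CPM in young brains (r = 0.871, permutation p = 4e-05, adjusted p = 0.00309). The F-box protein component, of a family that selects proteins for ubiquitination, had 2.04 to 11.6 CPM in old fat bodies, 3.75 to 9.52 CPM in young fat bodies, 11.6 to 28.4 CPM in old brains and 9.59 to 27.6 CPM in young brains (r = 0.806, adjusted p = 0.0061). The focadhesin component, a focal adhesion protein, had 35.3 to 62.2 CPM in old fat bodies, 54.5 to 90.5 CPM in young fat bodies, 97.0 to 141 CPM in old brains and 98.8 to 173 CPM in young brains (r = 0.716, permutation p = 0.00275, adjusted p = 0.0491).

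Seen per queen rather than per contig, each brain resembled its own fat body. Across the members tested, the brain and fat body deviations of a queen correlated at r = 0.592 ± 0.030 (SD, n = 8) in old queens, with a range of 0.566 to 0.654, and at 0.582 ± 0.030 in young queens, with a range of 0.545 to 0.626. The difference between ages, 0.0099, was within the spread between queens (exact two-sided permutation p = 0.52). These values are across contigs, which are not independent replicates. For 16 of 16 brains the queen's own fat body gave the highest value, and the best fat body of any other queen reached 0.0994 at most. Without the queen-split contigs the values were 0.303 ± 0.051 in old queens and 0.332 ± 0.030 in young queens (exact permutation p = 0.18). Over the members that were not called they were 0.279 ± 0.048 and 0.280 ± 0.040 (exact permutation p = 0.96). The members not called still include queen-split contigs, and no value was taken with both sets left out.

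**Figure D4:**
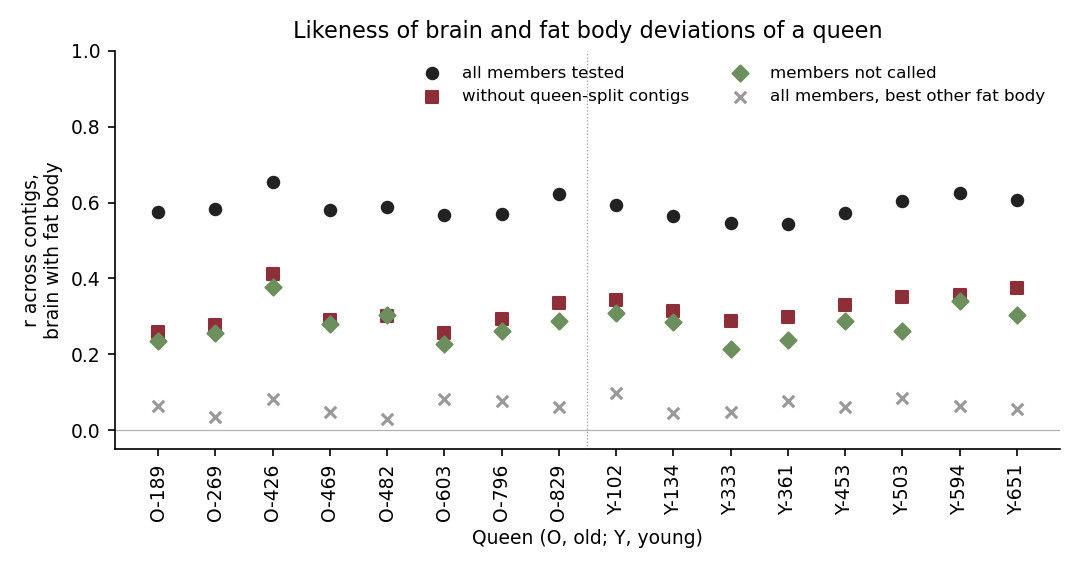
Pearson r across contigs between a queen's brain and fat body deviations (vertical axis) for each queen (horizontal axis, old left of the dotted line), over all members tested, without queen-split contigs, over members not called, and with the best fat body of another queen. Every queen lies at 0.545 to 0.654 over all members, against at most 0.0994 with another queen's fat body over the same contigs. Over members not called, which still include queen-split contigs, every queen lies at 0.215 or more.

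Queens of 1 age were also compared with each other within each tissue. Over the 56 pairs of queens of the same age, the r between their deviations ran from -0.267 to 0.0991 in fat bodies and from -0.258 to 0.0265 in brains, where centring on the group mean alone gives -0.143. The centring pulls these values below 0, so they cannot be set against those of a queen's own tissues. Over the pairs, likeness in brains and likeness in fat bodies correlated at 0.274. The pairs share queens, and no test is given. Of the 862 queen-split contigs, an old queen had 434 ± 16.2 high in both tissues and a young queen 427 ± 14.8 (SD, n = 8 each; exact permutation p = 0.42). An old queen had 251 ± 9.7 low in both and a young queen 250 ± 10.2 (exact permutation p = 0.84). Within a single age of 8 queens the exact permutation test called 0 members after adjustment, where the number of orders of 8 queens limits how small p can be. At an unadjusted p under 0.05, 1711 members were positive and 112 negative in old queens, and 2005 and 122 in young queens. The median r was 0.188 over old queens and 0.3003 over young queens, a difference that was not tested. Of the called members, 94.7% had r of at least 0.5 in both ages and 1458 of 1459 had r above 0 in both. Without the 2 queens farthest from the brain median, 94.2% had an r of at least 0.5 and 1 had an r below 0. The called members were selected by their r over these same queens. Such shares are therefore largely fixed beforehand and support nothing further.

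Since each queen gave both tissues, the shared spread also enters a comparison between them. Without a queen term, edgeR's quasi-likelihood test called 6838 members between fat body and brain at an adjusted p under 0.05, 4402 higher and 2436 lower in the fat body, against a background of 65.2% over the contigs in that fit. With the queen as a block it called 7239, of which 4507 were higher and 2732 lower in the fat body.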

How the data were processed

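Per the labels, each queen was decapitated, brain and fat body were dissected on ice into TRIzol, RNA was purified on Qiagen columns and BGI built the libraries. The authors deposited whole-number read counts per contig of a transcript assembly, unscaled per the file headers. As tools, the submitters' processing notes list RSEM 1.3.0, Bowtie, Bowtie2, DESeq2 1.2.10, Trimmomatic 0.36 and FastQC 0.11.5, with no role given, and which assembler was used is not stated there. RSEM shares reads between similar transcripts, so counts may be split between contigs of a component. The authors' deposited age tables, which list contigs by their own adjusted p-value, were used only for protein descriptions; 860 contigs have a protein name there.

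CPM printed per library were scaled by TMM within each tissue. The membership threshold and the limit for counting error used total counts without that scaling. Correlations used log2 CPM with a prior count of 2, scaled by TMM within each tissue (edgeR 4.0.16, R 4.3.3), for contigs that varied in both tissues and were kept by filterByExpr at a minimum count of 10 and a minimum total of 15. P-values came from 100000 permutations of queens within age, with contigs far from any call stopped within the first 10000, and were adjusted by Benjamini-Hochberg over 47045 contigs at a threshold of 0.05. Calculations used Python 3.11.15, numpy 2.4.6, scipy 1.17.1 and, as an alternative, DESeq2 1.42.0. The smallest p is 1e-05, and 5e-05 within 1 age. With 228763 contigs in the table, 48253 passed the filter and 1208 of these had no spread in a tissue. Alternatives changed the scaling, prior count, filter, correlation, level of summing, membership threshold and queens used.

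Brain and fat body were paired from the individual label alone, and their likeness is a result, not a ground for the pairing. The edgeR fit of fat body minus brain had no queen term, and the fit with it was the alternative.

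On simulated counts of 48253 contigs, 1000 with a shared queen effect of SD 1 log2 and 1000 of SD 2, the permutation test recovered 0.7% and 13.1%, with 6 false among 144 calls. With 200 such contigs it recovered 0% of either size, although 21% and 75% had an unadjusted p under 0.05, so members without a call can still covary. The edgeR queen term, simulated on 10643 contigs with 200 affected, recovered 20% and 91% with 0 false among 111 calls. Noise in the simulated counts was set without queen terms, so it already held the spread between queens of the real data. It also followed the trend over abundance, not each contig's own spread. These shares therefore do not give the recovery in the real data.

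Members, lists and rules were chosen with earlier results of these data known. Named contigs have a protein name and are, 1 per description, the called contigs with the highest r (up to 15) or the largest spread (up to 5), the 10 with the lowest r, and up to 3 per gene list by mean CPM. Up to 2 contigs without a name were allowed at each end of r, and 8 queen-split contigs. The other contigs with a called negative r were added after the values were seen. No queen-split contig has its own name, so those 8 were named through their component. No sequences were used, and no columns of per-sample values were left out.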

Additional observations from a re-analysis of the deposited data

Results flagged for a closer look

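In 66 groups of 8 libraries, formed by the contigs named by rule, 4 held a library set apart from the other 7 by Dixon's criterion at the 95% level, and chance alone sets apart a library in about 1 in 20 groups. The tropomyosin-1 contig was far higher in old brain O-482, at 17.2 CPM, than in the other old brains, which lay at 3.92 to 7.78 CPM. Band 3 anion transport protein was set apart on the low side in old brain O-796, at 46.2 CPM, and in young brain Y-102, at 27.8 CPM. Protein mahjong, which takes part in cell competition in flies, was set apart on the low side in young brain Y-361, at 88.4 CPM. Of these contigs only tropomyosin-1 was called between brain and fat body, and its call held without O-482.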

How the results depend on the processing

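The 1459 members called with a positive r became 1031 to 1432 under total-count or median-of-ratios scaling, a prior count of 0.5, no filter, Spearman's rank correlation or removal of the first principal component, and 1291 to 1371 with single queens left out. They became 366 with counts summed per component, 0 in old or in young queens alone, 2919 of 20685 members (14.1%) at a mean of 1 CPM and 472 of 4074 (11.6%) at 20 CPM. Where 5 members had a negative call, there were 9 on total counts, of which 1 was among the 5, and 1 with no filter; the count was 2 per component, 0 within either age, 8 at 1 CPM, 3 at 20 CPM and 2 to 8 with single queens left out. The median r of 0.199 became 0.247 without the first principal component, 0.0878 per component, 0.3003 in young queens and 0.190 to 0.224 with single queens left out. DESeq2's likelihood-ratio test gave 2682 members for the queen term against 1222 by edgeR. The contigs called in gene lists numbered 1, and 2 with Spearman's correlation, 0 within either age and 1 to 2 with single queens left out. The difference in profile correlation between old and young queens, 0.0099, reversed to -0.00073 without queen O-426 and ranged from -0.00073 to 0.0171 with single queens left out. With the queen as a block, so that tissues of a queen are paired, fat body minus brain had 7239 calls against 6838. Single contigs, those named by rule and every contig with a called negative r, were also followed under the alternatives. Of their values, 1618 stayed on their side of the threshold, 103 calls were lost, 7 were gained and 0 reversed. Most of these contigs had no call to lose, so the 103 all fall on the few that were called in the main setting. Of 25 settings each, ABCB10 lost its call in 2, tropomyosin-1 in 3 and meiosis arrest female protein 1 homolog in 17. The cause of these changes was not tested. A single age held 8 queens, fewer than the 16 of the main setting. Whether the number of queens or counting error had a part in these changes was not tested, and the simulated counts do not give the recovery in the real data.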

Other observations

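Members of the immunity list, which the account above gives only as a median, had a median SD between queens of 0.605 log2 in fat bodies and 0.483 log2 in brains, beside 0.567 and 0.370 over all members. None of the 3 was called. Toll-like receptor 3, of the family that starts the Toll response, had 101.03, 191 and 351 CPM (lowest, median, highest) in old fat bodies, 188, 456 and 1139 CPM in young fat bodies, 21.6, 37.7 and 155 CPM in old brains and 14.4, 20.7 and 173 CPM in young brains. Y-102 was the highest for its group in both tissues, yet O-796, among the highest brains, was among the 3 lowest fat bodies, and r was 0.253 (permutation p = 0.41, adjusted p = 0.764). Beta-1,3-glucan-binding protein-like, a sensor of microbial cell walls, had 648, 1790 and 3659 CPM in old fat bodies, 319, 743 and 915 CPM in young fat bodies, 46.9, 52.2 and 121 CPM in old brains and 45.4, 60.5 and 83.9 CPM in young brains (r = 0.306, permutation p = 0.337, adjusted p = 0.712). O-469 was the lowest for its group in both tissues. Pellino, which acts in Toll signalling in flies, varied less, with SDs of 0.216 log2 in fat bodies and 0.254 log2 in brains, at 30.6 to 47.9 CPM in old fat bodies, 53.4 to 81.4 CPM in young fat bodies, 19.2 to 34.5 CPM in old brains and 27.4 to 41.3 CPM in young brains (r = -0.215, adjusted p = 0.791).

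Among transporters, a glucose transporter of solute carrier family 2 had 34.9 to 568.1 CPM in old fat bodies and 4.18 to 79.8 CPM in young fat bodies, against 163 to 254 CPM in old brains and 194 to 242 CPM in young brains. Its spread over queens was 1.32 log2 in fat bodies and 0.172 log2 in brains (r = -0.0567, adjusted p = 0.963). Y-102 and O-796 ranked highest for their groups in the fat body and O-426 lowest.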
